A study of Mus musculus with 96 samples.

Results

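The genes described here are the proteasome subunits and regulators of mouse epidermis: every gene whose symbol begins with Psma, Psmb, Psmc, Psmd, Psme, Psmf or Psmg, together with Adrm1 and Pomp, with a mean level of at least 1 RPKM (read counts scaled to transcript length and library depth) over 96 libraries. The rule matched 51 names, and 50 of them reached the limit, among 12144 genes that did so. Just inside it lay Psmc3ip, with a mean of 3.15 RPKM, and just outside it Psma8, the testis form of an alpha subunit, with 0.0805 RPKM. The family was chosen because Adrm1 and Psmc4 differed over the day between the genotypes RERE and WT. For these 2 genes, values from WT and RERE libraries are therefore given as a description with no test, and the count of members called between RERE and WT supports nothing. 1 of the 50, Psmc3ip, carries the prefix but encodes a factor of homologous recombination and is not a part of the proteasome.

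The study asked how the daily transcriptome of the epidermis depends on which tissues hold a working circadian clock. All mice were C57BL/6 males aged 8 weeks, kept under 12 h of light and 12 h of dark with chow freely available, and epidermis was taken every 4 h, at 6 times counted from lights on (zeitgeber time 0, ZT0), from 4 mice of each genotype. Arntl encodes the clock activator BMAL1, and the stopFL allele holds a stop cassette that Cre recombinase removes. WT mice were Arntl wt/wt and carried both K14Cre and Syt10-Cre, so the controls also express both recombinases. The other 3 genotypes were Arntl stopFL/stopFL: RERE mice carried K14Cre and Syt10-Cre, EpiRE mice carried K14Cre alone, and BRE mice carried Syt10-Cre alone. K14 drives expression in basal keratinocytes and Syt10 in the brain, including the central clock, so the clock was meant to run in epidermis and brain, in epidermis only, and in brain only, respectively. Poly(A) RNA came from back-skin epidermis lifted off with dispase.

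Libraries had an estimated 11.3 to 32.4 M reads (median 16.5 M). The clock labels were checked on Nr1d1, a direct BMAL1 target: its means at the 6 times ran from 8.59 to 143 RPKM for WT mice, 9.53 to 145 for RERE, 32.4 to 73.1 for EpiRE and 3.77 to 4.67 for BRE. Markers of basal keratinocytes summed to between 10456 and 18686 RPKM in every library, while endothelial markers summed to at most 0.314 RPKM and adipocyte markers to at most 1.45 RPKM. Other lists were higher. Skeletal muscle markers summed to between 29.3 and 49.8 RPKM, with 1 of 3 markers reaching the level limit. Sums for blood, melanocytes and fibroblasts reached 51.5, 25.4 and 20.6 RPKM in single WT libraries, where their medians were 4.99, 8.07 and 5.16 RPKM. T-cell and Langerhans-cell markers were present and are given beside the results on Psmb8, Psmb9, Psmb10, Psme1 and Psme2. The tissue is a bulk sample, so fewer cells of a type and less RNA per cell cannot be told apart.

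The proteasome degrades proteins marked with ubiquitin. Its 20S core is a barrel of alpha and beta rings with the proteolytic sites on the beta subunits inside, and the 19S particle caps the barrel, binds ubiquitin chains, removes them and threads the substrate in with a ring of ATPases. In cells exposed to interferon, the catalytic beta subunits Psmb6, Psmb7 and Psmb5 give way to Psmb9, Psmb10 and Psmb8, forming the immunoproteasome, which yields peptides for antigen presentation. Other activators can replace the 19S cap, among them PA28 (Psme1 and Psme2 in the cytoplasm, Psme3 in the nucleus) and PA200 (Psme4). The genes of the constitutive particle are known to be induced together by the factor Nfe2l1 when proteasome activity falls short.

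Levels of the constitutive subunits ran from 15.4 to 112 RPKM. Psmb1, a beta-ring subunit, had the highest mean level of all members (112 RPKM over 96 libraries), and the lowest beta-ring mean was 23.1 RPKM for Psmb7, which carries the trypsin-like site. In the alpha ring the means ran from 31.2 RPKM for Psma3 to 74.0 RPKM for Psma2. Among the 19S ATPases they ran from 25.7 RPKM for Psmc4 to 73.4 RPKM for Psmc5, and among the other 19S subunits from 15.4 RPKM for Psmd11 to 61.6 RPKM for Psmd2, the scaffold of the base. These levels are per transcript length and can be compared between genes.

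Factors that build the particle were lower. Levels of the chaperones of the 19S base ran from 7.47 RPKM for Psmd10 to 14.9 RPKM for Psmd5, and those of the 20S assembly factors from 9.77 RPKM for Psmg2 to 14.1 RPKM for Pomp, the maturation protein of the beta ring. Psmf1, the inhibitor PI31, had 5.22 RPKM. The activators spanned 13.4 RPKM for Psme4 to 92.1 RPKM for Psme1. Of the exchange subunits, Psmb8 had 40.0 RPKM and Psmb10 7.87 RPKM, and Psmb11, known as the thymus-specific beta subunit, had 11.4 RPKM.

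These levels differed little between genotypes. The ratio of the highest to the lowest genotype mean had a median of 1.05 over the 50 members and was below 1.2 for 49 of them; for Psmc3ip it was 1.24. The 4 genotypes were deposited as separately normalized tables, so levels between them are set side by side and were not tested. The plot of levels by role gives all members.

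**Figure D1:**
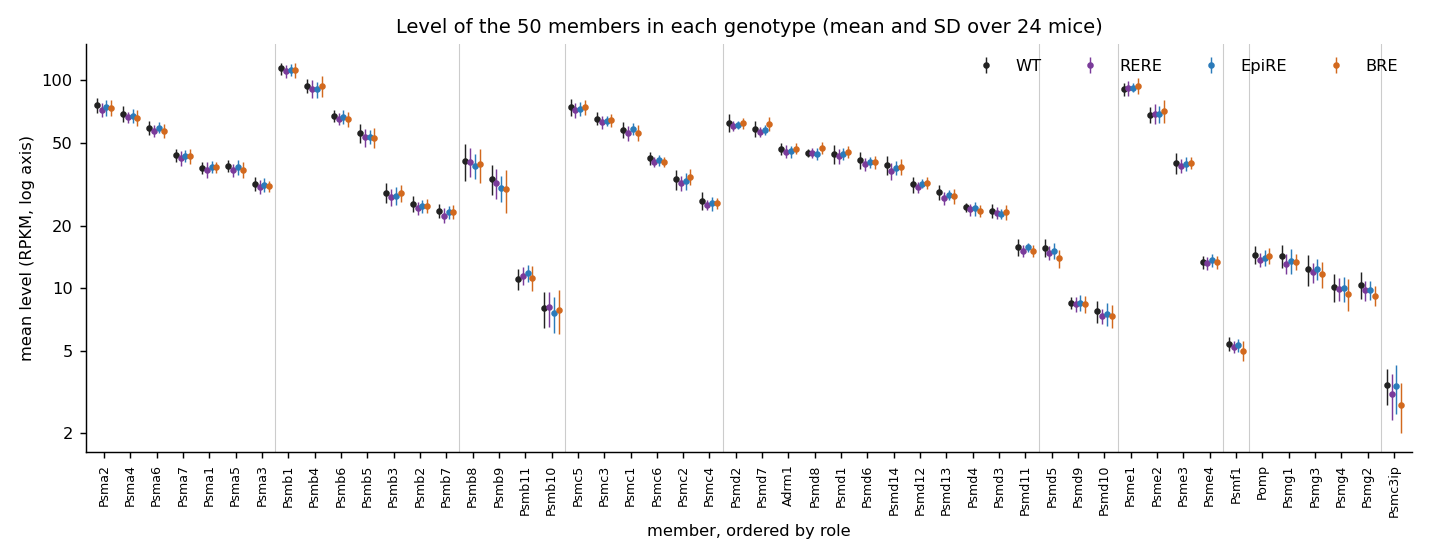
Mean level of each of the 50 members (RPKM, log axis) in WT, RERE, EpiRE and BRE, ordered by role and separated by vertical lines; bars are the SD over 24 mice. The 4 genotypes lie close together for every member, from Psmb1 at about 112 RPKM down to Psmc3ip at 3.15 RPKM, and Psmb8, Psmb9, Psmb10 and Psmc3ip have the widest bars.

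Rhythms were fitted to the log2 values as a 24 h cosine. A member was called rhythmic where limma's F test over the 12144 genes gave a Benjamini-Hochberg adjusted p below 0.05, and its size is given in log2 units as the fitted peak minus the fitted trough, the peak-to-trough difference, with its SE (24 mice per genotype). In WT, 28 of 50 members were called, against 34.4% of all genes. In RERE 9 were called (16.4% of all genes), in BRE 13 (17.1%), and in EpiRE none (2.87%). The rhythms were shallow: the median peak-to-trough difference of the 50 members was 0.20, 0.14, 0.09 and 0.17 for WT, RERE, EpiRE and BRE, beside 0.23, 0.18, 0.15 and 0.20 for all genes. After rescaling each library by the median of its ratios to the genotype's mean profile, 15, 3, 0 and 4 members were called in WT, RERE, EpiRE and BRE, against 31.8%, 14.8%, 2.84% and 12.7% of all genes, so the counts of members depend on the scaling. Counts over all 50 include Adrm1 and Psmc4; of the other 48 members, 26 were called in WT, 8 in RERE and 13 in BRE.

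In WT the called constitutive subunits peaked late in the dark phase. The core comprises 32 subunits (both rings, the ATPases and the other 19S subunits). Without Adrm1 and Psmc4, 18 of 30 were called, against 34.4% of all genes. By role they were 4 of 7 in the alpha ring, 4 of 7 in the beta ring, 3 of 5 ATPases and 7 of 11 other 19S subunits. After rescaling, those called among the 30 were Psmb2, Psmb3, Psmb5, Psmb7, Psmd1, Psmd14, Psmd2 and Psmd6, against 31.8% of all genes. No alpha-ring subunit and none of these ATPases was then called. Without Adrm1 and Psmc4, 24 of the 26 members called in WT had their fitted peak between ZT18 and ZT24. With them it was 25 of 28. These 25 were 50% of the 50 members, against 16.4% of all genes, and 89.3% of the called members, against 47.8% of the called genes. After rescaling 10 members were called with a peak there, 20% against 9.69% of all genes. For each genotype, here and below, the window given is the one that held the most called members. It was picked from these peaks, so the shares in it are a description and no test.

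Psmc4, an ATPase of the 19S base, was at 23.1, 23.4, 23.6 and 25.0 RPKM in the 4 WT mice at ZT8 and at 28.0, 29.0, 30.4 and 32.1 RPKM at ZT20. The mice at the 2 times did not overlap. Its fitted peak-to-trough difference in WT was 0.33 ± 0.04, with a peak at ZT19.1. Here and below, the 2 times compared for a gene were those of its highest and lowest mean in that genotype. They were picked from these same values, so a lack of overlap is a description and no test. In EpiRE, where no member was called, mice at times picked this way also did not overlap for some members, such as Psma2 and Psmd4. They overlapped for others, such as Psmc3 and Psme1. Adrm1, the ubiquitin receptor Rpn13 of the 19S base, was at 41.5, 42.0, 42.6 and 47.0 RPKM at ZT4 and at 49.2, 51.6, 51.9 and 52.6 RPKM at ZT16, again with no overlap. The fit placed its WT peak at ZT17.9, with a difference of 0.22 ± 0.04.

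Psmd14, the deubiquitinase Rpn11 that strips ubiquitin from substrates, was called in WT, RERE and BRE. In WT it was at 39.5, 45.1, 46.7 and 47.3 RPKM at ZT0 and at 34.0, 34.1, 34.4 and 34.6 RPKM at ZT12. All 4 mice at ZT0 were above all 4 at ZT12, with a difference of 0.33 ± 0.05, a peak at ZT23.1 and adjusted p = 3.55e-04 by limma. Psme3, the nuclear PA28 activator, was at 32.6, 32.6, 35.8 and 38.7 RPKM at ZT4 and at 41.6, 44.4, 45.1 and 48.2 RPKM at ZT16. Its difference of 0.37 ± 0.06 was called at adjusted p = 1.54e-04, with a peak at ZT18.7.

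The 2 large scaffold subunits of the 19S base were also called in WT. Psmd1 rose from 36.9, 39.6, 40.1 and 40.6 RPKM at ZT12 to 45.8, 49.8, 50.4 and 51.4 RPKM at ZT0 (0.33 ± 0.06, peak at ZT22.1, limma adjusted p = 4.96e-04). Psmd2 rose from 53.5, 53.8, 57.2 and 57.7 RPKM at ZT12 to 61.6, 68.7, 70.3 and 71.9 RPKM at ZT0 (0.29 ± 0.05, peak at ZT21.3, limma adjusted p = 9.94e-04). In both genes the mice of the high and the low time, picked from these values, did not overlap.

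**Figure D2:**
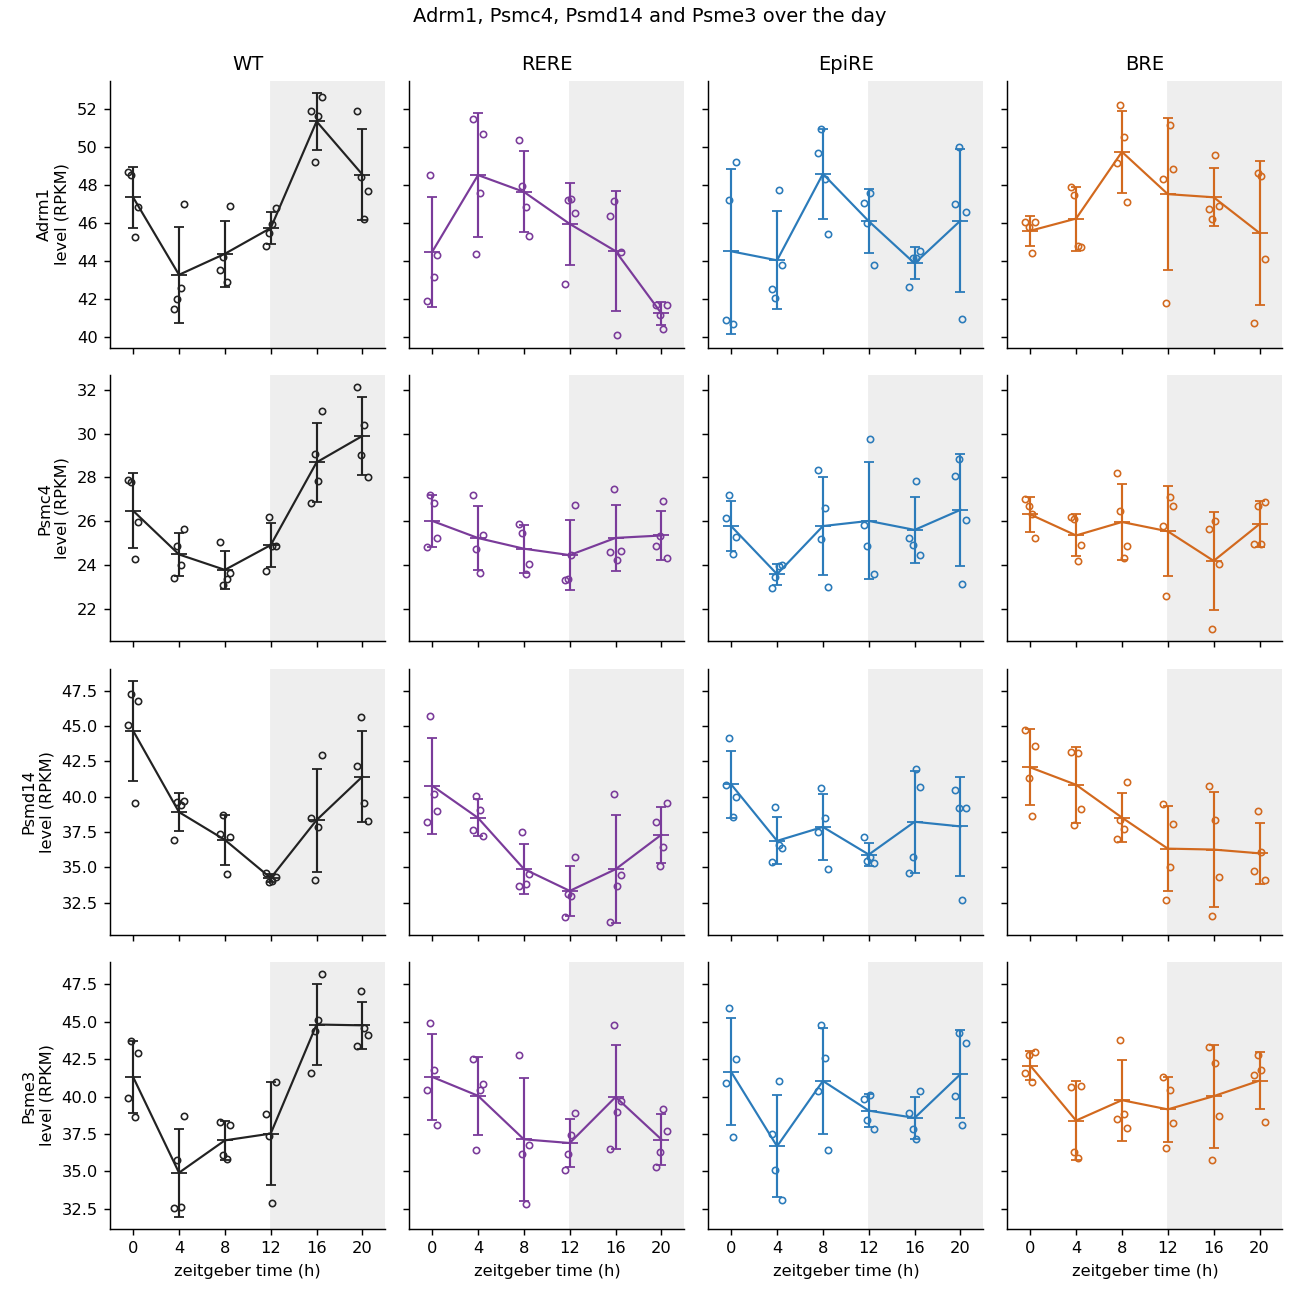
Levels of Adrm1, Psmc4, Psmd14 and Psme3 (RPKM, vertical axis from a value above 0) against zeitgeber time in the 4 genotypes; circles are mice, lines join the means of 4 mice, bars are the SD and grey marks the dark phase. In WT, Psmc4 is highest at ZT20 and Adrm1 at ZT16, while in RERE Adrm1 is highest at ZT4 and Psmc4 stays between 23.3 and 27.5 RPKM.

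Shown are the RefSeq promoters (GRCm38.p6, the build named mm10 in the deposited data) of the 4 genes in the plot of subunits by time. That of Psmb5 is added because it codes for the chymotrypsin-like site. Each runs up to the base before the annotated gene start, 5′ to 3′ on the gene's strand. Capitals mark matches, on either strand, to CACGTG (the E-box bound by BMAL1), TGACNNNGC (the antioxidant response element core, the kind of site that Nfe2l1 and Nfe2l2 bind) or CCAAT, here as its complement ATTGG. Adrm1 at chr2:180171338-180171484 on the plus strand, Psmb5 at chr14:54618023-54618245 on the minus strand, Psmc4 at chr7:28050102-28050342 on the minus strand, Psmd14 at chr2:61711444-61711693 on the plus strand and Psme3 at chr11:101315963-101316212 on the plus strand read as follows.
Adrm1: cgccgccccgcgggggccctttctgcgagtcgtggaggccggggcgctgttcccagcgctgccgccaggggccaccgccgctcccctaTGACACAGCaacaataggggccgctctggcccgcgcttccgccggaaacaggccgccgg
Psmb5: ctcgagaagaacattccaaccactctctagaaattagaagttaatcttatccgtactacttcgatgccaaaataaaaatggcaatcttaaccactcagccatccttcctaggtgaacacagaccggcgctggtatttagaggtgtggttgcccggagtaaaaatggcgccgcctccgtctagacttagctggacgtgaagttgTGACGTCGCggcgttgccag
Psmc4: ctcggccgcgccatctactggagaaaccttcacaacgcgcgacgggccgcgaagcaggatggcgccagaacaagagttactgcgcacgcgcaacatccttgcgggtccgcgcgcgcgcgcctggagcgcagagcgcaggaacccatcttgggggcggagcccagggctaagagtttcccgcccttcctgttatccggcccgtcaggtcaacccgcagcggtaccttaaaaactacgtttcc
Psmd14: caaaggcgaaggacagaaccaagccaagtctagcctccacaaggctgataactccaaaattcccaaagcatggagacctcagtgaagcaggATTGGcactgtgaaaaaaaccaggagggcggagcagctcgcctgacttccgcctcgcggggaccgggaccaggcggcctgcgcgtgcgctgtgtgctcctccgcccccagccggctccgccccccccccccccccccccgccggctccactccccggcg
Psme3: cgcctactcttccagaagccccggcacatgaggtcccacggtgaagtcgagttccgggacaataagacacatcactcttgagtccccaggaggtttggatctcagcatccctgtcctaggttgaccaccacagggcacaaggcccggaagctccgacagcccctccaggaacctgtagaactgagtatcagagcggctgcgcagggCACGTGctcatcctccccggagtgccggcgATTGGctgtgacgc

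Motifs were counted in the 250 bases before each RefSeq start, for which 46 promoters of 43 members matched. CACGTG was in 4 of the 46 (8.70%, against 6.02% of 32851 promoters of that length), in Psma4, Psmb10, Psmd9 and Psme3. TGACNNNGC was in 6 (13.04% against 10.2%), in Adrm1, Psmb5, Psmb6, Psmc6, Psmd12 and Psmd9, and CCAAT in 16 (34.8% against 33.8%). TTATGNAA, the D-box core, was in none of the 46 and in 3.07% of all promoters. The member shares were close to those of all promoters. A match is a description of letters, not a bound site.

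Other WT rhythms touched the assembly line of the particle. Of 5 factors for 20S assembly, 3 were called (Psmg2, Pomp and Psmg1), and of 3 chaperones of the 19S base, 2 (Psmd5 and Psmd10). After rescaling Psmg2 kept the call, while Pomp, Psmg1, Psmd5 and Psmd10 lost it. Psmg2, which pairs alpha subunits, was at 8.00, 8.79, 9.53 and 10.0 RPKM at ZT8 and at 10.2, 11.8, 12.5 and 13.7 RPKM at ZT20, with no overlap. Its difference of 0.39 was called with a peak at ZT20.8 and adjusted p = 0.00501 by limma. Of the activators, Psme3 and Psme4 were called, and Psme4 lost the call after rescaling. None of the exchange subunits, Psme1, Psme2 or Psmf1 was called in WT, though after rescaling Psmb8 and Psme1 were (limma adjusted p = 0.0224 and 0.0185).

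Averaged over the 32 core subunits, each as its deviation from its genotype mean, the WT log2 level was highest at ZT0 (0.08 ± 0.10, SD, n = 4) and ZT20 and lowest at ZT12 (-0.10 ± 0.04). The fitted difference of this mean was 0.18, 0.12, 0.05 and 0.14 for WT, RERE, EpiRE and BRE. After rescaling it was 0.11, 0.08, 0.07 and 0.09, so the order of genotypes held but the spread between them narrowed. The circular mean of the 32 fitted peaks was ZT21.4 for WT and ZT19.9 for EpiRE, against ZT1.79 for RERE and ZT4.22 for BRE. The resultant length of the peaks, which is 1 where all peaks coincide, was 0.854, 0.879, 0.567 and 0.842, so EpiRE peaks were the most scattered.

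**Figure D3:**
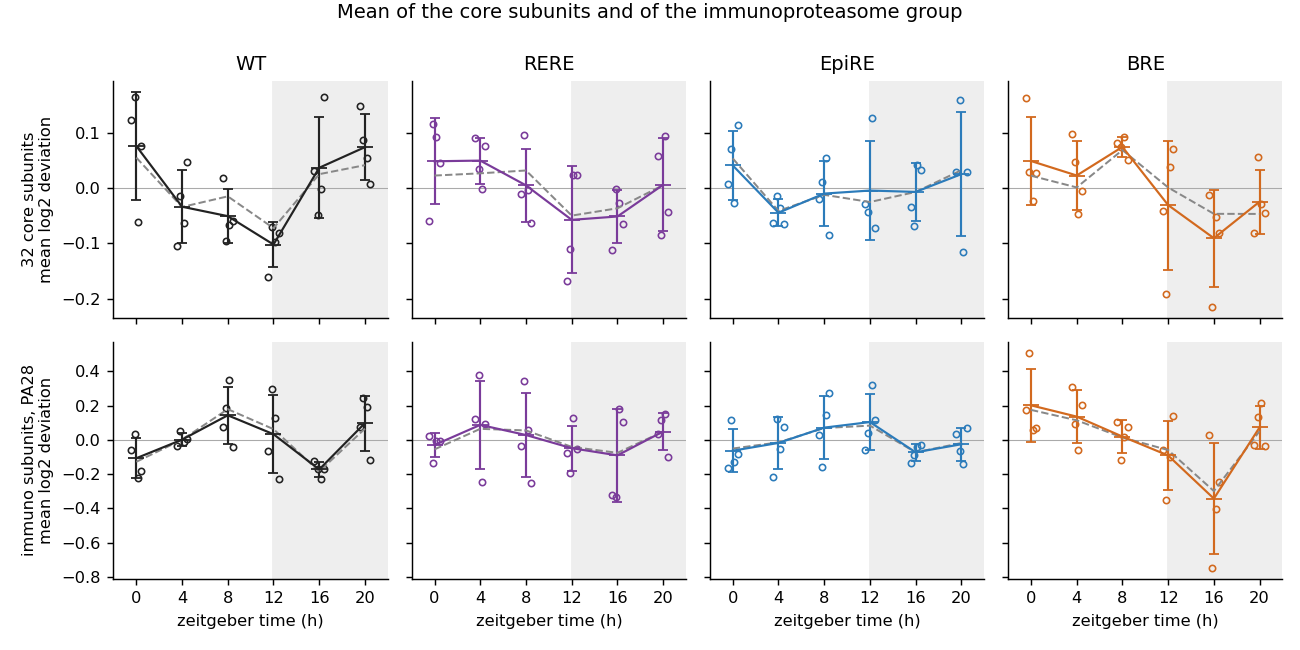
Mean log2 deviation from the genotype mean of the 32 core subunits (top row) and of Psmb8, Psmb9, Psmb10, Psme1 and Psme2 (bottom row) against zeitgeber time; circles are mice, solid lines join means of 4 mice with SD bars, dashed grey lines are the means after rescaling, and the rows have different scales. The WT core mean is lowest at ZT12, and the lowest mouse of the bottom row is BRE replicate 2 at ZT16, at -0.75.

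The core subunits moved together between mice as well as over time. Within times, each core subunit's deviation was correlated with the mean of the other core subunits (24 libraries each, and the points share library and depth). The median Pearson r was 0.73, 0.73, 0.74 and 0.78 for WT, RERE, EpiRE and BRE. The medians over all genes were 0.11, 0.01, -0.02 and 0.18. Pomp reached 0.74, 0.72, 0.81 and 0.86, though it is not a subunit of the finished particle. Psmb11 had -0.47 for WT and -0.54 for EpiRE but 0.05 for RERE, and for BRE its value moved from 0.00 to -0.57 on rescaling. Psme4 had 0.28, -0.44, -0.61 and -0.09 in the same order.

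In RERE, with the clock restored in epidermis and brain, the called members peaked after lights on. Of the 9, 8 had their peak between ZT0 and ZT6. They were 16% of the 50 members, against 6.93% of all genes, and 88.9% of the called members, against 42.2% of the called genes. After rescaling 2 members were called with a peak there, 4% against 4.38% of all genes. All 9 were also called in WT (32.1% of the 28), where 34.4% of all genes were called. The overlap over all genes was not counted, so nothing is read from that of the members. Leaving out Adrm1, the peaks of the other 8 came a median of 3.495 h later in RERE, with a range from 0.896 to 6.76 h. Peaks of all called genes also lay later in RERE, with a circular mean of ZT0.338 against ZT20.8 in WT (resultant length 0.302 and 0.366). By role these 8 were 5 of 11 non-ATPase 19S subunits (Psmd14, Psmd3, Psmd13, Psmd1 and Psmd6), 1 of 7 beta-ring subunits (Psmb7), the base chaperone Psmd5 and the assembly factor Pomp. No ATPase and none of the alpha ring was called.

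Psmd14 was at 38.2, 39.0, 40.2 and 45.7 RPKM in RERE at ZT0 and at 31.5, 33.0, 33.1 and 35.8 RPKM at ZT12, with no overlap. Its difference of 0.28 ± 0.05 peaked at ZT0.414, and the call (limma adjusted p = 0.00301) was kept after rescaling at 0.0271. Psmd3, a structural subunit of the 19S lid, was at 23.5, 24.5, 24.7 and 26.3 RPKM at ZT4 and at 20.4, 20.8, 21.7 and 22.0 RPKM at ZT16 (0.21 ± 0.04, peak at ZT3.61, limma adjusted p = 0.00483). Psmd13, another lid subunit, was called at 0.18 with a peak at ZT2.61 (limma adjusted p = 0.0186), and Psmd5 at 0.21 with a peak at ZT1.31 (limma adjusted p = 0.0198). Psmd1, called at 0.0407, and Psmd13 and Psmd5 lost the call after rescaling.

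The genes that chose the family ran as follows in RERE. Adrm1 was at 44.3, 47.6, 50.7 and 51.5 RPKM at ZT4 and at 40.4, 41.1, 41.7 and 41.7 RPKM at ZT20, with no overlap, a fitted difference of 0.20 ± 0.05 and a peak at ZT7.15. Its WT and RERE peaks lay 10.7 h apart. Psmc4 was at 24.8, 25.2, 26.8 and 27.2 RPKM at ZT0 and at 23.3, 23.4, 24.4 and 26.7 RPKM at ZT12, which overlapped, with a fitted difference of 0.07 ± 0.04. Between RERE and WT, 3 members were called (Adrm1, Psmc4 and Psmd3), against 0.453% of all genes, and after rescaling 1, Adrm1, against 0.082%. This is the contrast that chose the family, and nothing is read from it.

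In EpiRE, with the clock in the epidermis only, no member was called. At an unadjusted p below 0.05 limma gave 6 members, against 20.5% of all genes, and the smallest adjusted p was 0.0734, for Psmc3ip. In the authors' deposited table neither JTK_CYCLE nor BIOCYCLE gave a member a q value below 0.05 in this genotype. The same table gave 14, 4 and 2 members by JTK_CYCLE in WT, RERE and BRE, beside 20.8%, 8.52% and 5.67% of all genes. By BIOCYCLE the authors' deposited table gave 8 members in WT and 0 in RERE and in BRE, beside 10.0%, 1.56% and 0% of all genes. Psmc4 in EpiRE was at 22.97, 23.45, 23.96 and 23.99 RPKM at ZT4 and at 23.1, 26.0, 28.1 and 28.9 RPKM at ZT20, which overlapped. Adrm1 was at 42.6, 44.1, 44.2 and 44.5 RPKM at ZT16 and at 45.4, 48.3, 49.7 and 50.9 RPKM at ZT8, which did not overlap, and its fitted difference was 0.08 ± 0.05 with adjusted p = 0.648 by limma.

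**Figure D4:**
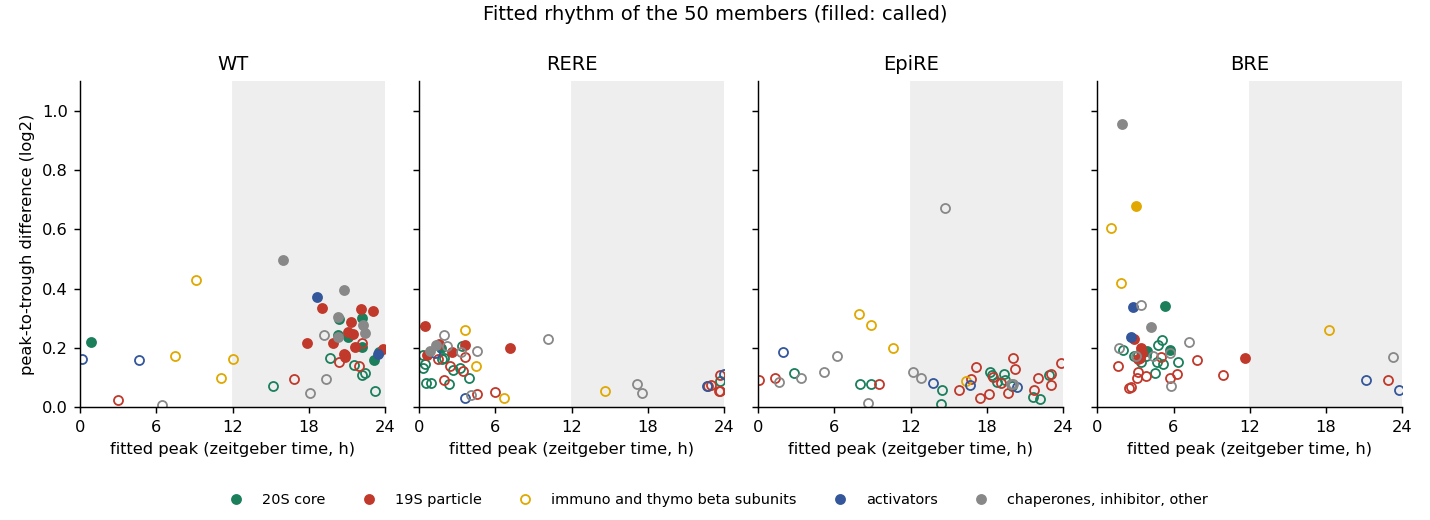
Fitted peak time (zeitgeber time, h) and peak-to-trough difference (log2) of the 50 members in each genotype; filled circles are members called at adjusted p below 0.05, open circles the rest, colours are roles and grey marks the dark phase. Of the filled circles, 25 of 28 lie between ZT18 and ZT24 in WT (24 of 26 without Adrm1 and Psmc4). In RERE 8 of 9 and in BRE 12 of 13 lie between ZT0 and ZT6, and EpiRE has none.

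In BRE, with the clock in the brain only, 13 members were called, and 12 of them peaked between ZT0 and ZT6. They were 24% of the 50 members, against 9.63% of all genes, and 92.3% of the called members, against 56.5% of the called genes. After rescaling 2 members were called with a peak there, 4% against 4.49% of all genes. They were 1 alpha-ring subunit (Psma6), 2 beta-ring subunits (Psmb4 and Psmb7), 5 non-ATPase 19S subunits (Psmd2, Psmd14, Psmd6, Psmd8 and Psmd13), the exchange subunit Psmb9, both cytoplasmic PA28 subunits (Psme1 and Psme2), the inhibitor Psmf1 and Psmc3ip. No ATPase and no assembly factor or chaperone was called. Psmd8 was the member with another peak, at ZT11.7. The count rested on single libraries: without BRE replicate 2 at ZT16, which had the lowest mean of the core subunits of all BRE mice (-0.22), 3 were called. Those 3, called in each fit that left out 1 BRE library, were Psmc3ip, Psmb4 and Psmb9.

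Psmb4, a beta-ring subunit without a proteolytic site, was at 102, 104, 111 and 113 RPKM in BRE at ZT8 and at 70.1, 77.6, 81.0 and 82.8 RPKM at ZT16. These mice did not overlap, with a difference of 0.34 ± 0.08, a peak at ZT5.34 and limma adjusted p = 0.0134 (0.0126 after rescaling). In WT its means at the 6 times lay between 92.0 and 97.1 RPKM and the fit gave 0.06 ± 0.06 with adjusted p = 0.775. The BRE profile differed from that in WT at adjusted p = 0.0309, a call that was lost after rescaling (0.0846).

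Of the 13, 6 were also called in WT (46.2% of the 13 and 21.4% of the 28): Psmb7, Psmc3ip, Psmd13, Psmd14, Psmd2 and Psmd6. Their peaks came a median of 5.97 h later in BRE. Peaks of all called genes also lay later in BRE, with a circular mean of ZT2.32 against ZT20.8 in WT (resultant length 0.478 and 0.366). With RERE, BRE shared 4 called members (30.8% of the 13 and 44.4% of the 9). These 4, Psmb7, Psmd13, Psmd14 and Psmd6, were the members called in WT, RERE and BRE alike. Overlaps over all genes were not counted, so nothing is read from those of the members. In BRE, Psmd14 was at 38.6, 41.4, 43.6 and 44.7 RPKM at ZT0 and at 34.1, 34.8, 36.1 and 39.0 RPKM at ZT20, which overlapped (0.23 ± 0.06, peak at ZT2.89, limma adjusted p = 0.0338; 0.163 after rescaling). Psmd2 was at 63.5, 64.2, 66.3 and 67.4 RPKM at ZT0 and at 55.7, 58.5, 59.3 and 62.7 RPKM at ZT16, with no overlap (0.17, peak at ZT3.35, limma adjusted p = 0.0255; 0.206 after rescaling).

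The difference between BRE and WT was tested as an interaction of genotype with the 24 h cosine over 48 libraries. Without Adrm1 and Psmc4, which were chosen on WT libraries, it was called for 19 of 48 members, against 20.2% of all genes, and for 10 after rescaling, against 18.7%. The fitted difference was larger in BRE for 3, Psmb4, Psmc3ip and Psma7 (5.59% of all genes), and larger in WT for the rest (14.6%). Psmd2 had 0.17 in BRE and 0.29 in WT, with peaks 6.06 h apart (limma adjusted p = 0.00128). Psmc4 had 0.07 ± 0.05 in BRE, where mice were at 25.2, 26.3, 26.7 and 27.0 RPKM at ZT0 and at 21.08, 24.04, 25.66 and 26.00 RPKM at ZT16, which overlapped. Adrm1 in BRE had 0.11 ± 0.05 with a peak at ZT9.92. No test is given for Psmc4 and Adrm1, and the comparison shares its WT libraries with the one that chose the family.

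Between EpiRE and WT, 5 of the 48 members other than Adrm1 and Psmc4 were called (8.51% of all genes): Psmb5, Psmg2, Psme1, Psme3 and Psmd2, each with the larger fitted difference in WT (7.73%). After rescaling 1 was called, Psme1, against 5.39%. Psmb5, which carries the chymotrypsin-like site, had 0.30 in WT with a peak at ZT20.4 and 0.08 in EpiRE (limma adjusted p = 0.0148; 0.0841 after rescaling). In WT it was at 48.4, 49.1, 50.1 and 55.0 RPKM at ZT8 and at 53.2, 59.5, 63.2 and 65.0 RPKM at ZT0, which overlapped. Psmg2 had 0.39 in WT and 0.12 in EpiRE (limma adjusted p = 0.0252; 0.0811 after rescaling). Psme1 had 0.16 in WT with a peak at ZT4.66 and 0.08 in EpiRE with a peak at ZT16.7 (limma adjusted p = 0.0468; 0.0277 after rescaling). The comparisons of BRE and of EpiRE with WT share their WT libraries.

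Against RERE, 1 member was called in BRE (4.79% of all genes; 1 after rescaling, against 4.83%) and 1 in EpiRE (4.04%; 0 after rescaling, against 3.57%). The first was Psmc3ip. The second was Psmd3, with 0.21 ± 0.04 in RERE and 0.05 ± 0.05 in EpiRE (limma adjusted p = 0.0354; 0.112 after rescaling), whose EpiRE mice were at 20.9, 21.9, 22.2 and 22.6 RPKM at ZT4. Limma gave an unadjusted p below 0.05 for 2 members in the first comparison (14% of all genes) and 6 in the second (19.1%).

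BRE and EpiRE share no library with the contrast that chose the family. Between them 6 members were called, 12% of the 50 against 13.9% of all genes, each with the larger fitted difference in BRE (10.5%): Psmc3ip, Psme1, Psmb2, Psmb8, Psmb9 and Psme2. After rescaling 3 were called, against 11.4%, Psmc3ip, Psme1 and the lid subunit Psmd7, the first pair of which were among the 6. Psmb2, a beta-ring subunit without a proteolytic site, was at 24.9, 25.4, 25.7 and 28.6 RPKM in BRE at ZT0 and at 20.9, 21.5, 22.3 and 24.7 RPKM at ZT16, with no overlap (0.18 in BRE, 0.12 in EpiRE, limma adjusted p = 0.0381; 0.104 after rescaling).

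The levels of the immunoproteasome and PA28 genes correlated with the core mean between BRE mice, with a within-time Pearson r of 0.73 for Psme1, 0.67 for Psme2, 0.64 for Psmb10, 0.60 for Psmb9 and 0.43 for Psmb8 (24 libraries that share library and depth). The BRE median over all genes was 0.18, and after rescaling the BRE values were 0.59, 0.61, 0.41, 0.45 and 0.27. In WT the values were 0.08, 0.52, 0.41, 0.22 and -0.09 in the same order. They were 0.42, 0.45, 0.36, 0.29 and 0.21 in RERE and 0.53, 0.70, 0.16, 0.28 and -0.15 in EpiRE. In BRE, Psme1 was at 94.9, 96.8, 100 and 104 RPKM at ZT4 and at 78.8, 79.2, 81.5 and 90.2 RPKM at ZT16, with no overlap. Its difference of 0.24 ± 0.06 peaked at ZT2.61 (limma adjusted p = 0.0302; 0.0724 after rescaling), and it differed from that in EpiRE at adjusted p = 0.0127 (0.0491 after rescaling). Psme2, its partner in the PA28 ring, was at 70.6, 74.9, 80.5 and 84.8 RPKM at ZT4 and at 43.8, 57.9, 64.7 and 67.7 RPKM at ZT16 (0.34, peak at ZT2.8, limma adjusted p = 0.0435; 0.0871 after rescaling).

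Psmb9, the interferon-induced counterpart of Psmb6, was at 30.0, 31.0, 35.3 and 47.5 RPKM in BRE at ZT0 and at 14.86, 17.97, 20.89 and 33.58 RPKM at ZT16. The mice overlapped through 1 at ZT16, and the fitted difference of 0.68 ± 0.16 peaked at ZT3.02 (limma adjusted p = 0.02; 0.0247 after rescaling). Psmb9 shares 212 exon bases with the antigen transporter gene Tap1 on the opposite strand. Tap1 was also called in BRE (0.33, peak at ZT3.85, limma adjusted p = 0.0113), and whether the authors' counting used strand is not given in the sources used here, so reads from the shared bases cannot be told apart. Psmb10, counterpart of Psmb7, was at 7.51, 8.69, 10.2 and 12.4 RPKM at ZT0 and at 3.51, 5.72, 6.57 and 7.22 RPKM at ZT16, and its difference of 0.60 ± 0.18 was not called (adjusted p = 0.0603 by limma).

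Psmb8, counterpart of Psmb5, peaked at different times in the 2 genotypes. In WT it was at 29.4, 32.4, 33.2 and 35.3 RPKM at ZT16 and at 40.8, 47.0, 52.0 and 55.7 RPKM at ZT8, with no overlap, but its difference of 0.43 ± 0.14 was not called (peak at ZT9.1, adjusted p = 0.0543 by limma; called after rescaling at 0.0224). In BRE it had 0.42 with a peak at ZT1.85 (adjusted p = 0.0693, not called). The BRE and WT profiles differed at limma adjusted p = 0.0262 (0.021 after rescaling), with peaks 7.26 h apart, and those of BRE and EpiRE at 0.0399 (0.0859 after rescaling). The log2 ratio of Psmb8 to Psmb5 in single WT mice had a mean of -0.87 at ZT16 and -0.06 at ZT8. In BRE its means lay between -0.57 at ZT8 and -0.28 at ZT0.

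Averaged over Psmb8, Psmb9, Psmb10, Psme1 and Psme2, the fitted difference was 0.45 in BRE with a peak at ZT2.22 (ZT4.31 for the core mean), beside 0.14 in WT, 0.12 in RERE and 0.15 in EpiRE. At ZT16 the BRE mean was -0.34 ± 0.32 (SD, n = 4), and replicate 2 alone stood at -0.75. Markers of other cell types were set beside this group. No T-cell or Langerhans-cell list was at 0: the summed level of 6 T-cell markers (Cd3d, Cd3e, Cd3g, Thy1, Cd7 and Cd247) ran in BRE from a mean of 60.9 RPKM at ZT16 to 84.0 RPKM at ZT20, over all BRE mice from 46.8 to 97.0 RPKM, with 1 of 5 tested markers called. In WT its means ran from 38.9 RPKM at ZT8 to 78.1 RPKM at ZT20, in RERE from 35.5 to 74.2 RPKM and in EpiRE from 52.0 to 66.9 RPKM. Of the Langerhans-cell markers 0 of 6 were called in each genotype, and their sum at ZT16 in BRE, where the group was lowest, was 97.6 ± 21.7 RPKM, the highest of the BRE means. The part of either cell type in the result was not tested.

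**Figure D5:**
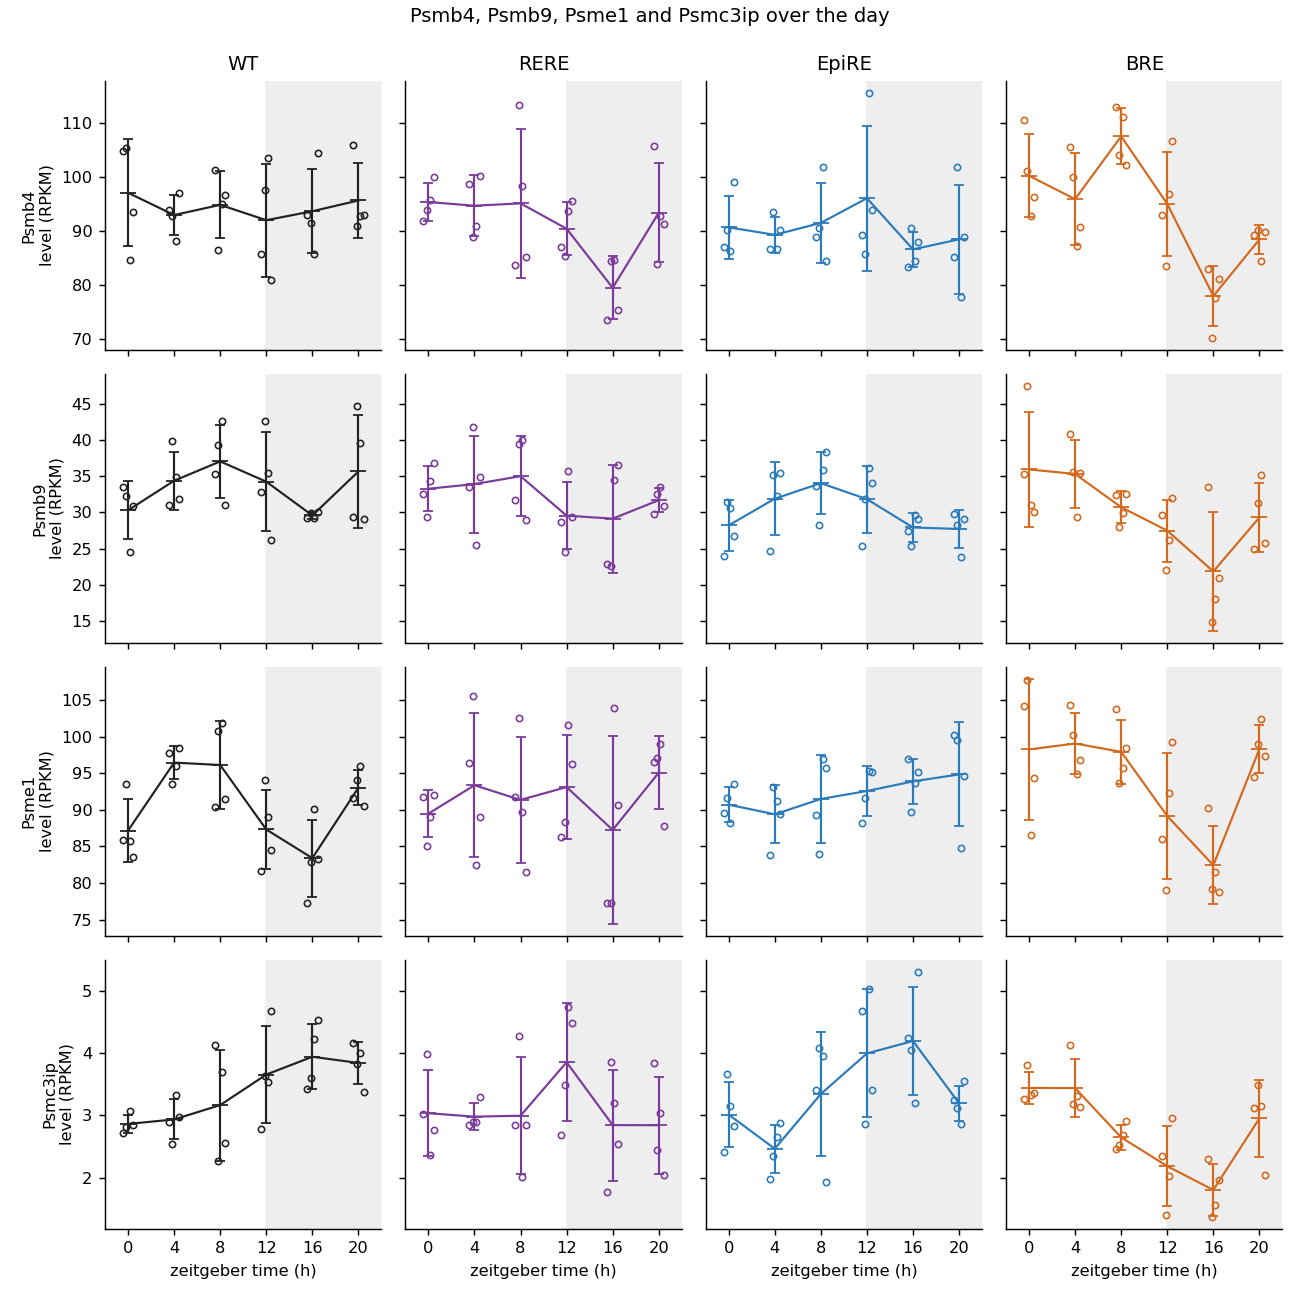
Levels of Psmb4, Psmb9, Psme1 and Psmc3ip (RPKM, vertical axis from a value above 0) against zeitgeber time in the 4 genotypes; circles are mice, lines join the means of 4 mice, bars are the SD and grey marks the dark phase. In BRE all 4 genes are lowest at ZT16, where Psmc3ip is at 1.38 to 2.30 RPKM, while its WT mice at ZT16 are at 3.42 to 4.53 RPKM.

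The member with the largest fitted difference was Psmc3ip, the recombination factor that only shares the prefix. In BRE it was at 3.27, 3.32, 3.37 and 3.81 RPKM at ZT0 and at 1.38, 1.56, 1.97 and 2.30 RPKM at ZT16, with no overlap (0.96 ± 0.16, peak at ZT1.98, limma adjusted p = 0.00226). In WT the order was reversed: 2.71, 2.82, 2.86 and 3.07 RPKM at ZT0 and 3.42, 3.60, 4.23 and 4.53 RPKM at ZT16 (0.50 ± 0.13, peak at ZT16.0, limma adjusted p = 0.0169). In EpiRE it was at 3.19, 4.05, 4.24 and 5.31 RPKM at ZT16 (0.67, peak at ZT14.7, not called). BRE differed from WT at limma adjusted p = 1.7e-05, from EpiRE at 8.12e-05 and from RERE at 0.0218.

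These calls for Psmc3ip were kept after rescaling (1.02e-05, 1.35e-04 and 0.0185 by limma). Psmc3ip is the least expressed of the members, and it shares 385 exon bases with Mlx on the opposite strand. Mlx had 14.2 RPKM in BRE, where its fitted difference was 0.04 and not called (adjusted p = 0.891 by limma). In WT Mlx was called with 0.26 and a peak at ZT18.9 (limma adjusted p = 0.0271). The part of Mlx reads in the Psmc3ip values was not tested. In all, 14 of the 50 members share exon bases with another gene, 12 of them with one on the opposite strand.

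The inhibitor Psmf1 and the lid subunit Psmd8 were called in BRE as well. Psmf1 was at 5.14, 5.26, 5.54 and 5.90 RPKM at ZT4 and at 4.24, 4.36, 4.45 and 4.62 RPKM at ZT16, with no overlap (0.27, peak at ZT4.19, limma adjusted p = 0.0363; 0.0683 after rescaling). Psmd8 was at 46.8, 50.6, 52.5 and 52.6 RPKM at ZT12 and at 42.9, 43.7, 44.9 and 45.5 RPKM at ZT4, also with no overlap (0.17, peak at ZT11.7, limma adjusted p = 0.0435; 0.024 after rescaling). The test of the difference from WT called neither. Both were named after their values were seen. Over the 4 genotypes, 15 members were called in none, among them Psmb1, Psmb6, Psmb8, Psmb10 and Psmb11. The share of all genes called in none was not counted.

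The wider pathway was read from 3 lists outside the family. Over all genes, 34.4%, 16.4%, 2.87% and 17.1% were called in WT, RERE, EpiRE and BRE, and these counts are read against these shares. Of 9 proteasome-bound proteins, 4 were called in WT (Ube3c, Usp14, Uchl5 and Sem1), 0 in RERE, 0 in EpiRE and 1 (Usp14) in BRE, and after rescaling 3, 0, 0 and 0. Ube3c, a ubiquitin ligase bound to the particle, had a WT difference of 0.28 with a peak at ZT21.9, and Usp14, a proteasome-bound deubiquitinase, 0.27 with a peak at ZT21.4. Of 13 genes of ubiquitin and its delivery, 8 were called in WT, 4 in RERE (Vcp, Uba1, Rad23b and Ubqln1), 0 in EpiRE and 1 (Vcp) in BRE, and after rescaling 7, 1, 0 and 1. Uba1, the main ubiquitin-activating enzyme, had 0.36 ± 0.05 in WT with a peak at ZT22.7, 0.25 in RERE with a peak at ZT1.83, and 0.05 in EpiRE. Vcp, the segregase that unfolds ubiquitinated clients, had 0.36 in WT with a peak at ZT23.9, 0.26 in RERE with a peak at ZT1.69 and 0.16 in BRE with a peak at ZT2.59, where the call was lost after rescaling (limma adjusted p = 0.275).

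Of 10 genes that control proteasome transcription, 4 were called in WT (Hsf1, Ngly1, Nfe2l1 and Nfe2l2), 1 in RERE (Ngly1), 1 in EpiRE (Hsf1) and 1 in BRE (Ngly1), near the shares of all genes, and after rescaling 3, 0, 1 and 1. Nfe2l1, the factor known to induce proteasome genes, had 0.16 ± 0.05 in WT with a peak at ZT2.13 (limma adjusted p = 0.0308; 0.0817 after rescaling) and 0.09 in BRE with a peak at ZT15.4, and the genotypes differed at adjusted p = 0.00902. Nfe2l2, the oxidative stress factor, had 0.38 ± 0.12 in WT with a peak at ZT11.3 (limma adjusted p = 0.0476; 0.0277 after rescaling) and 0.38 in BRE with a peak at ZT22.0 (0.0694, not called), and the genotypes differed at limma adjusted p = 0.00502. Ngly1, which processes the Nfe2l1 protein, had 0.20 in WT with a peak at ZT0.36 (called, but not after rescaling, at 0.0554 by limma) and 0.31 in BRE with a peak at ZT5.59.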

How the data were processed

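Poly(A) RNA of 96 epidermis samples was sequenced, 24 per genotype, and each library is 1 mouse. Per the submitters' processing notes, reads were handled with Trimmomatic 0.36, HISAT2 2.2.1, SAMtools 1.3.1, featureCounts 1.6.0 and edgeR (version not given) on mm10. The authors deposited log2 values per gene in 1 table per genotype. No label names their unit; they behave as log2 RPKM with a prior count of 2 reads, inferred from the lowest values, and depth was estimated from the same steps. The authors also deposited q-values of JTK_CYCLE and BIOCYCLE runs. The 96 sample columns of the JTK_CYCLE tables were not used.

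Genes present in all 4 tables (22384) were kept at a mean of at least 1 RPKM over 96 libraries (12144). Of these, 266 to 289 per genotype had one value in all 24 libraries. Limma 3.58.1 in R 4.3.3 fitted cosine and sine of a 24 h period to the log2 values with no pseudocount added, with eBayes and a mean-variance trend, within a genotype or, for differences, as interactions over 48 libraries. P-values were Benjamini-Hochberg adjusted over all genes tested. A peak-to-trough difference understates changes of the lowest genes because of the prior count. The fits were tested on simulated data. Alternatives were another scaling (median of ratios), no filter, 1 RPKM added, a 6-level time factor, the replicate number as block, 1 fit over 96 libraries, and leaving out each library or replicate number.

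Named were Adrm1, Psmc4, the 6 members with the smallest adjusted p per genotype and 4 per difference among those called, the highest and lowest of each role, the exchange pairs and PA28; any other was named after its values were seen. The members and lists were chosen with earlier results of these data known. Precision is limited by 4 mice per time, and the lowest levels by depth.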

Additional observations from a re-analysis of the deposited data

Results flagged for a closer look

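In single groups of 4 mice, the value of 1 mouse lay far from the others by Dixon's criterion in 4 of 168 groups tested. Tested in 24 groups each were 7 items: Adrm1, Psmc4, Psmc3ip, Psmb9, Psme1, the core mean and the mean of the immunoproteasome and PA28 group. Chance alone flags about 1 in 20. Adrm1 in RERE at ZT12 had a lowest mouse of 42.8 RPKM beside others of 46.5 to 47.3 RPKM, and in BRE at ZT0 a lowest mouse of 44.4 RPKM beside 45.8 to 46.1 RPKM. Psmc4 in RERE at ZT16 had a highest mouse of 27.5 RPKM beside 24.2 to 24.6 RPKM. Psmc3ip in RERE at ZT4 had a highest mouse of 3.30 RPKM beside 2.85 to 2.89 RPKM.

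Rhythms that differed between genotypes by limma's interaction test, with adjusted p, were those of Psmc3ip (1.7e-05, 0.0218 and 8.12e-05 for BRE against WT, RERE and EpiRE; fitted difference 0.96 in BRE and 0.50, 0.23 and 0.67 in the others) and of Psmd2 (0.00128, BRE against WT; 0.17 and 0.29). Between EpiRE and WT they were those of Psmb5 (0.0148; 0.08 and 0.30), Psmg2 (0.0252; 0.12 and 0.39) and Psme1 (0.0468; 0.08 and 0.16). Between EpiRE and RERE it was that of Psmd3 (0.0354; 0.05 and 0.21). Between BRE and EpiRE they were those of Psme1 (0.0127; 0.24 and 0.08), Psmb2 (0.0381; 0.18 and 0.12) and Psmb8 (0.0399; 0.42 and 0.28).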

How the results depend on the processing

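No named call reversed its direction under the settings run. Over all of these, including each library left out, named results kept their status, called or not, 1368 times. Calls were lost 264 times. The kept ones include Psmc4 in RERE, which was not called with the settings used. Counts of called members are given in the order WT, RERE, EpiRE and BRE, then RERE, BRE and EpiRE against WT, BRE and EpiRE against RERE, and BRE against EpiRE; with the settings used they were 28, 9, 0, 13, 3, 21, 6, 1, 1 and 6. Counts within 1.5 times are left out. Rescaling gave 15, 3 and 4 in WT, RERE and BRE, then 1, 12 and 1 against WT, 0 for EpiRE against RERE and 3 for BRE against EpiRE. Without the filter RERE had 5 and BRE 4, RERE against WT 1, EpiRE against WT 3, EpiRE against RERE 0 and BRE against EpiRE 2. With a 6-level time factor RERE had 1 and BRE 6, then 1, 11 and 2 against WT, 0 and 0 against RERE, and 2 for BRE against EpiRE. One fit over 96 libraries gave 1 in EpiRE and 0 for EpiRE against RERE; the cause was not tested for any of these. Kept under all 6 settings were 11 of 28 WT calls, 1 of 9 in RERE (Psmd14) and 2 of 13 in BRE (Psmb4 and Psmc3ip). Against WT, 8 of 21 were kept for BRE and 0 of 6 for EpiRE. Against RERE, 0 of 1 was kept for each of BRE and EpiRE. For BRE against EpiRE, 2 of 6 were kept (Psmc3ip and Psme1). Counts here include Adrm1 and Psmc4. RERE against WT is the contrast that chose the family, and nothing is read from its counts.

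Replicate numbers did not pair mice: deviations of same-numbered mice correlated at a mean r of -0.003, 0.03, -0.02 and -0.01 for WT, RERE, EpiRE and BRE, and 7, 10, 4 and 5 of 24 libraries correlated best with their own number. With the replicate block BRE had 8 called members, RERE against WT 1 and EpiRE against RERE 0, and no other count moved by over 1.5 times.

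Leaving out 1 library gave 23 to 32, 5 to 10, 0 to 2 and 3 to 18 members in WT, RERE, EpiRE and BRE, then 1 to 5, 16 to 26 and 3 to 8 against WT, 1 to 1 and 0 to 2 against RERE, and 2 to 10 for BRE against EpiRE. Leaving out a replicate number at all times gave 10 to 21, 2 to 5, 0 to 3 and 1 to 5, then 0 to 1, 9 to 11 and 0 to 8, 0 to 1 and 0 to 1, and 1 to 5. In RERE, 9 libraries each gave 5: ZT0 replicates 2 and 3, ZT4 1 and 2, ZT8 3, ZT12 1 and 2, and ZT16 1 and 4. In EpiRE, ZT8 replicate 4 gave 1 and ZT16 replicate 3 gave 2. In BRE, 14 libraries gave 3 (ZT16 replicate 2), 4 (ZT4 1 and ZT16 4), 6 (ZT0 2 and ZT20 1), 7 (ZT0 4, ZT8 2 and 4, ZT16 3) or 8 (ZT4 2, ZT8 3, ZT12 1 and 2, ZT20 3). RERE against WT moved to 1 or 5 with 25 libraries, EpiRE against WT to 3 with 13, EpiRE against RERE to 0 or 2 with 8 and BRE against EpiRE to 2, 3 or 10 with 11. Size alone did not settle a call: in WT, Psma1 was called at a fitted difference of 0.16, and Psmb8 was not at 0.43. The part of depth in this was not tested.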
